A study of Rattus norvegicus with 4 samples.

Results

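A set of 10 genes that FOXO transcription factors are known to regulate directly, and that act in fuel use, growth restraint and stress responses, were read in rat granulosa cells; no binding of FOXO1 was measured. They were Pdk4, Sesn3, Sesn1, Klf2, Selenop, Pik3ip1, Ddit4, Gadd45b, Gadd45a and Txnip, taken as every probe set whose annotated symbol was exactly one of these names. All 10 genes were found, among 14217 genes with a symbol of their own, and they were read by 19 of 20826 such probe sets. The cells were primary granulosa cells, the somatic cells that surround the oocyte, from female Sprague-Dawley rats aged 23 to 25 days that had received estradiol. Every culture received an adenovirus for 4 h, followed by 24 h of follicle-stimulating hormone (FSH, 100 ng/ml) or of vehicle. FOXOA3 FSH carried constitutively active FOXO1, FOXOA3-mDBD FSH carried the same protein with a mutated DNA-binding domain, and GFP FSH and GFP vehicle carried green fluorescent protein as the control. Each of these 4 groups had 1 array, so that no difference below has a replicate check and no p-value was computed. An uninfected culture was not analysed here, and the promoter of the vectors, the amount of virus and the number of animals pooled per culture are not stated in the sources at hand.

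FOXO factors bind DNA through a forkhead domain and are held out of the nucleus when the kinase AKT, downstream of PI3-kinase, phosphorylates them. Insulin, growth factors and, in granulosa cells, FSH activate that kinase, and the substitution of its target residues makes FOXO1 constitutively active. Unphosphorylated FOXO factors raise genes that spare glucose, slow growth signalling and protect against oxidative and genotoxic stress. A mutant in the DNA-binding domain is used to separate effects that need contact with forkhead sites from those that do not.

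In the comparison of active FOXO1 with its DNA-binding mutant, Klf2, Selenop, Pik3ip1, Sesn3 and Pdk4 were 4.65-fold, 4.56-fold, 4.43-fold, 3.52-fold and 2.45-fold higher in FOXOA3 FSH. Sesn1 was 2.12-fold lower, and Ddit4, Gadd45a, Gadd45b and Txnip differed by less than 2-fold. Thus 5 of the 10 genes were at least 2-fold higher and 1 was at least 2-fold lower, where 19.0% of the 10092 measured genes were that much higher and 9.24% lower. Klf2 was 1.24-fold higher by its other probe set above the floor on all arrays, and averaging all probe sets of a gene took Klf2, Sesn3, Pdk4 and Sesn1 to within 2-fold, with log2 ratios of 0.51, 0.91, 0.65 and -0.54. The median log2 ratio of the 10 genes was 1.05, beside a median of 0.21 over all measured genes. The 10 genes were chosen with earlier results of these data known. Here and in the other comparisons, their counts and medians beside those of all genes are therefore descriptions, not independent evidence. The array on which FOXOA3 FSH was measured also differed from that of the mutant in its control transcripts, as described after the promoters. There 4 of 6 measured markers of theca, stroma and smooth muscle and 4 of 11 granulosa markers were also at least 2-fold higher. The part of these markers in the ratios of the 10 genes was not tested.

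The proximal promoters of the genes that differed by 2-fold are shown because the mutation concerns contact with DNA. RefSeq promoter windows of rat build GRCr8 were at hand for 8 of the 10 genes, each of 300 bases, with 250 before the annotated start and 50 after it. Klf2 and Txnip were not matched. In the lines that follow, capitals mark GTAAACA, the core of FOXO sites, TGACG, a part of the cAMP response element, and CCAAT, each on either strand. None of the marked stretches overlap.
Selenop, chr2:54225662-54225961, plus strand: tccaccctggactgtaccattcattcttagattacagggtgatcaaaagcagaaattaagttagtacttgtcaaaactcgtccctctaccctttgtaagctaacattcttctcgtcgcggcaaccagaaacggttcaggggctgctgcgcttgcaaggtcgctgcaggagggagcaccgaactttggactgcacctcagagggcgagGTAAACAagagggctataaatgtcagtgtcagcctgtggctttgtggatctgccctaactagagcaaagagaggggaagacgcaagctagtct
Pik3ip1, chr14:82428065-82428364, plus strand: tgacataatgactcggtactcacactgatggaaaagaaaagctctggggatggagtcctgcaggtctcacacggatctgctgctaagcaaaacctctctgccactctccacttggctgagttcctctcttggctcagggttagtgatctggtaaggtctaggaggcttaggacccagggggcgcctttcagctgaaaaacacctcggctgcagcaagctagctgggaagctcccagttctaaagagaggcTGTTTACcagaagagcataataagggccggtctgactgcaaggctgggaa
Sesn3, chr8:19415177-19415476, plus strand: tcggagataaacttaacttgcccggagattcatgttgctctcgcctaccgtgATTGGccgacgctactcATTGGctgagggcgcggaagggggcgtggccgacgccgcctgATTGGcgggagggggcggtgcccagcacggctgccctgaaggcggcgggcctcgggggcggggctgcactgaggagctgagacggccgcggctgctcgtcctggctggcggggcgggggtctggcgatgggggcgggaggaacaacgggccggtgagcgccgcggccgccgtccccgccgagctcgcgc
Pdk4, chr4:34568280-34568579, minus strand: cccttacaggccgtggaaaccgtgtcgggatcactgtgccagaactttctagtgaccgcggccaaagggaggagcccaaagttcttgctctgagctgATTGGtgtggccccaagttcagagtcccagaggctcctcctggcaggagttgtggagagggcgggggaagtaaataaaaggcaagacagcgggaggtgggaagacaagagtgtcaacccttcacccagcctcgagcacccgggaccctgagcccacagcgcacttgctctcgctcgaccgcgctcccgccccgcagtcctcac
Sesn1, chr20:46948469-46948768, plus strand: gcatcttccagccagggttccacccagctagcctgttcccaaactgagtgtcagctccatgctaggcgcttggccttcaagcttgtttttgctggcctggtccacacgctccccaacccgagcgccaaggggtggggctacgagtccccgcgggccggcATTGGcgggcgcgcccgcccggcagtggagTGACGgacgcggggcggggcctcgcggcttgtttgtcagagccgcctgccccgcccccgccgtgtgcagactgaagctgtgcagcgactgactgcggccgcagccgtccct

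GTAAACA was present in the windows of 2 of the 8 genes, Selenop and Pik3ip1, and in 3.78% of all 33469 promoter windows. In Selenop it began at position -43 from the start, where -1 is the last base before it. In Pik3ip1 it was on the opposite strand and began at position 1, the first transcribed base. The table held a second window for Selenop, at a start further upstream, and GTAAACA was not in those letters. CCAAT was present for 6 of the 8 genes (37.5% of all windows), with 3 copies in Sesn3, and GGGCGG, the GC box, likewise for 6 of 8 (33.1% of all windows). The shorter TGACG was present for 3 of 8, Sesn1, Gadd45a and Gadd45b, and in 21.2% of all windows, and the E-box CACGTG only for Gadd45b (6.42%). The insulin response element CAAAACAA (2.23% of all windows) and the full cAMP response element TGACGTCA (1.83%) were in none of the 8. All motifs were searched on both strands, and a match is a description of the letters, not a measured binding site.

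The arrays differed in ways the groups do not name. Poly-A control transcripts, bacterial RNAs added before labelling, had geometric mean signals of 22.6 on FOXOA3 FSH, 539.4 on FOXOA3-mDBD FSH, 394.6 on GFP FSH and 21.4 on GFP vehicle. FOXOA3 FSH and GFP vehicle therefore share one state and FOXOA3-mDBD FSH and GFP FSH the other, and within the comparison of active FOXO1 with its mutant the vector and this state cannot be told apart. Hybridisation controls split by the same pairs, with geometric means of 1224.5 on FOXOA3 FSH and 1646.6 on GFP vehicle, and 2855.1 on FOXOA3-mDBD FSH and 2759.3 on GFP FSH. The 3' to 5' signal ratio of beta-actin was 9.79 on FOXOA3 FSH, 10.7 on FOXOA3-mDBD FSH, 12.0 on GFP FSH and 5.15 on GFP vehicle, which stood apart. That of Gapdh was 2.84, 3.15, 2.46 and 2.32 on these arrays in that order, and there GFP vehicle was close to GFP FSH. Of 11 granulosa markers on the array, 10 or 11 were above the floor, the median signal of all rat probe sets (100.5), on each array. Amh was at or under it on FOXOA3-mDBD FSH and Cyp19a1 on GFP vehicle. Of the 11, 4 were at least 2-fold higher in FOXOA3 FSH than in FOXOA3-mDBD FSH and 0 lower, with a median log2 ratio of 0.49. Of all measured genes, 19.0% were higher and 9.24% lower there. Against GFP FSH, 8 of the granulosa markers were at least 2-fold lower in FOXOA3 FSH and 9 in FOXOA3-mDBD FSH, with 0 higher in either. The shares of all measured genes that much lower were 6.99% and 19.1%. The summed signal of the granulosa markers was 63881 on FOXOA3 FSH, 53836 on FOXOA3-mDBD FSH, 146999 on GFP FSH and 49840 on GFP vehicle. Of 9 markers of theca, stroma and smooth muscle, 6 were above the floor with FOXOA3 FSH, at a summed signal of 24343, and 3 on FOXOA3-mDBD FSH with 1465. In FOXOA3 FSH over FOXOA3-mDBD FSH 4 of the 6 measured markers of this list were at least 2-fold higher and 0 lower, with a median log2 ratio of 1.81. The summed signal was 2243 on GFP FSH and 16672 on GFP vehicle, with Cyp17a1 and Col1a1 at or under the floor on every array. In cultures of mixed cells, fewer cells of a type and less RNA per cell cannot be told apart. Of 6 leukocyte markers, Ptprc, Cd68, Itgam and Cd3e were at or under the floor on all 4 arrays. Cd74 passed it only on FOXOA3 FSH, at 123.7. Cd14 was above it throughout, at 2577.0 on FOXOA3 FSH, 1012.3 on FOXOA3-mDBD FSH, 726.7 on GFP FSH and 2167.3 on GFP vehicle. The summed signal of the 6 was 2877, 1243, 971 and 2354 on these arrays in that order. Signals of the expressed factor's own gene do not check the vectors, since the species of the transgenes is not stated in the sources at hand. Foxo1 had a signal of 3834.5 on FOXOA3 FSH, 960.9 on FOXOA3-mDBD FSH, 2862.4 on GFP FSH and 8149.2 on GFP vehicle.

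**Figure D1:**
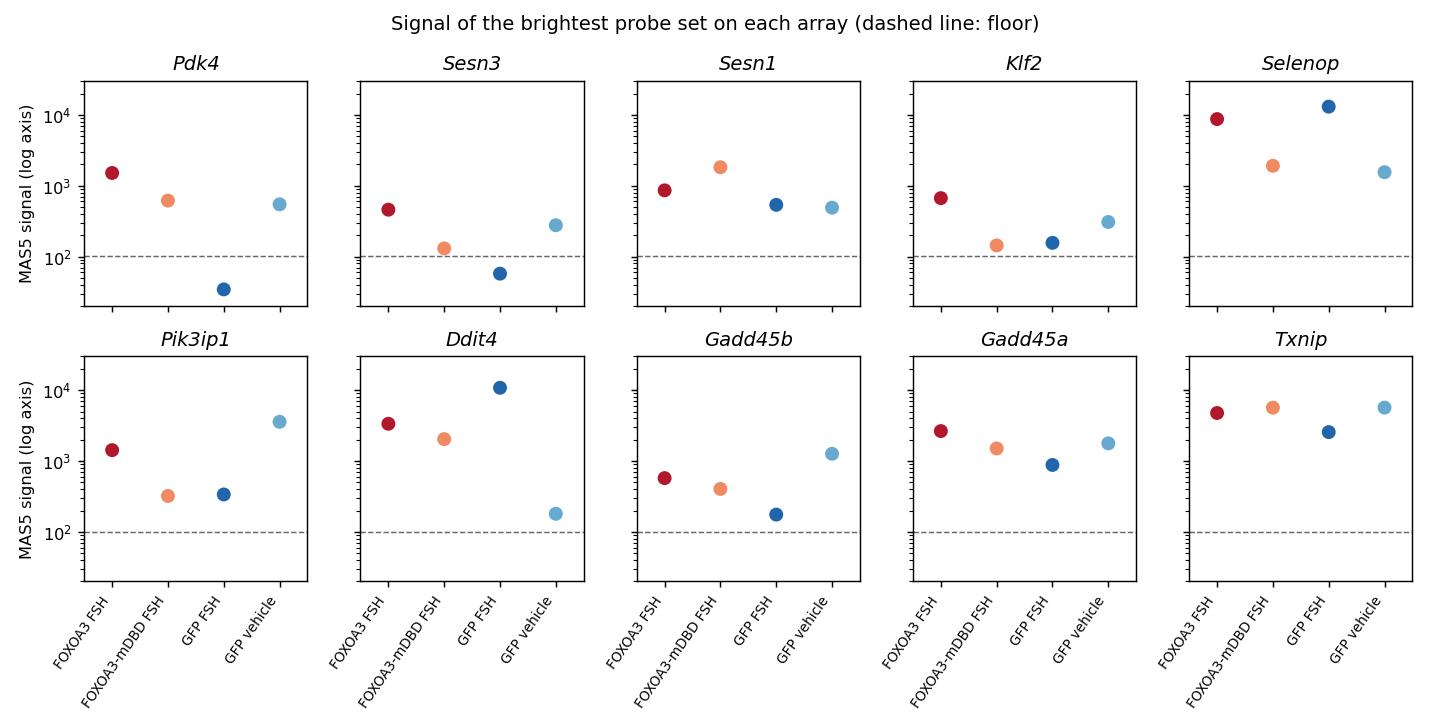
MAS5 signal (vertical log axis) of the brightest probe set of each of the 10 genes on the 4 arrays, 1 point per array, with the floor of 100.5 as a dashed line. FOXOA3 FSH is above FOXOA3-mDBD FSH in 8 of the 10 panels, and the points for Pdk4 and Sesn3 on GFP FSH lie under the floor.

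Fuel use was represented by Pdk4 and Txnip, and Selenop, which serves selenium supply, is described with them. Pdk4, the kinase that inhibits pyruvate dehydrogenase and so keeps pyruvate from oxidation, had a signal of 1512.6 on FOXOA3 FSH, 616.7 on FOXOA3-mDBD FSH, 34.4 on GFP FSH and 545.9 on GFP vehicle. It was thus brightest with active FOXO1 and under the floor only in the FSH-treated control. Relative to GFP FSH it was at least 15.1-fold higher in FOXOA3 FSH and at least 6.14-fold higher in FOXOA3-mDBD FSH, so that a higher Pdk4 signal was seen with either form of FOXO1. Only 0.272% of measured genes had a ratio as high or higher in FOXOA3 FSH against GFP FSH. The mutant and the unstimulated control were close, at 1.13-fold.

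Selenop encodes the plasma protein that carries selenium to other tissues. Its signal was 8711.2 on FOXOA3 FSH, 1909.1 on FOXOA3-mDBD FSH, 13057.2 on GFP FSH and 1550.9 on GFP vehicle. Bright arrays were those of active FOXO1 with FSH and of the control vector with FSH, and the mutant with FSH was near the unstimulated control, at 1.23-fold. The log2 ratio of FOXOA3 FSH to GFP FSH was -0.58, whereas FOXOA3-mDBD FSH was 6.84-fold lower. Relative to GFP FSH, the difference between active FOXO1 and its mutant in this gene thus lay in a low signal with the mutant. Relative to GFP vehicle it lay in a high signal with active FOXO1, which was 5.62-fold higher. The second probe set of Selenop was under the floor on all arrays, at 54.0 on FOXOA3 FSH, 20.8 on FOXOA3-mDBD FSH, 84.2 on GFP FSH and 18.8 on GFP vehicle.

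Txnip, an arrestin-like protein that binds thioredoxin and restrains glucose uptake, was among the 2 genes with a signal over 1000 on all arrays, the other being Selenop. It had 4764.9 on FOXOA3 FSH, 5671.8 on FOXOA3-mDBD FSH, 2562.9 on GFP FSH and 5680.4 on GFP vehicle. GFP FSH stood apart as the low array, and the other 3 lay within 1.19-fold of each other. Against GFP FSH, Txnip was 1.86-fold higher in FOXOA3 FSH and 2.21-fold higher in FOXOA3-mDBD FSH.

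Growth restraint was represented by Pik3ip1, Ddit4 and the sestrins Sesn1 and Sesn3. Pik3ip1, a membrane protein that inhibits PI3-kinase, had a signal of 1426.2 on FOXOA3 FSH, 322.1 on FOXOA3-mDBD FSH, 337.9 on GFP FSH and 3581.1 on GFP vehicle. The mutant and GFP FSH differed by 1.05-fold, and active FOXO1 was 4.22-fold higher than GFP FSH. It remained 2.51-fold lower than GFP vehicle, on arrays with the same state of the control transcripts.

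Ddit4, also called REDD1, inhibits the growth kinase mTORC1 through the TSC complex. Its signal was 3360.2 on FOXOA3 FSH, 2039.2 on FOXOA3-mDBD FSH, 10826.7 on GFP FSH and 180.3 on GFP vehicle. All FSH-treated arrays were bright, and the control vector was the brightest of them. Against GFP FSH, Ddit4 was 3.22-fold lower in FOXOA3 FSH and 5.31-fold lower in FOXOA3-mDBD FSH, and active FOXO1 exceeded its mutant by 1.65-fold. Against GFP vehicle it was 18.6-fold higher in FOXOA3 FSH, which 0.131% of the 9904 measured genes reached or passed, and 11.3-fold higher in FOXOA3-mDBD FSH.

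Sestrins are stress-inducible proteins that restrain mTORC1 and limit oxidative damage, and the 2 members differed. Sesn3 had a signal of 459.2 on FOXOA3 FSH, 130.3 on FOXOA3-mDBD FSH, 57.4 on GFP FSH and 276.6 on GFP vehicle. It was at least 4.57-fold higher in FOXOA3 FSH than in GFP FSH, and at least 1.30-fold higher in FOXOA3-mDBD FSH than in GFP FSH. Sesn1 had 859.9 on FOXOA3 FSH, 1822.8 on FOXOA3-mDBD FSH, 536.8 on GFP FSH and 489.9 on GFP vehicle, so that the mutant gave the brightest array. Against GFP FSH it was 1.60-fold higher in FOXOA3 FSH and 3.40-fold higher in FOXOA3-mDBD FSH. Sesn1 was the only one of the 10 genes at least 2-fold lower with active FOXO1 than with its mutant.

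The stress and transcription group held Klf2, Gadd45a and Gadd45b. Klf2, a zinc-finger transcription factor best known from endothelium and lymphocytes, had a signal of 667.9 on FOXOA3 FSH, 143.7 on FOXOA3-mDBD FSH, 156.2 on GFP FSH and 307.5 on GFP vehicle. FOXOA3 FSH was the highest array and GFP vehicle came next, and the mutant differed from GFP FSH by 1.09-fold. FOXOA3 FSH was 4.28-fold higher than GFP FSH and 2.17-fold higher than GFP vehicle. Of 4 endothelial markers, FOXOA3 FSH had 2 above the floor (summed signal 391), FOXOA3-mDBD FSH 2 (497), GFP FSH 1 (267) and GFP vehicle 1 (471). Pecam1 and Vwf were at or under the floor on all 4 arrays.

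Gadd45a and Gadd45b encode small acidic proteins, induced by DNA damage and other stress, that act on MAP kinase signalling and the cell cycle. Gadd45a had a signal of 2650.4 on FOXOA3 FSH, 1507.1 on FOXOA3-mDBD FSH, 881.4 on GFP FSH and 1777.3 on GFP vehicle, and Gadd45b had 574.9, 404.1, 175.7 and 1266.5 on the same arrays in that order. GFP FSH was the lowest array for both genes. Against GFP FSH, Gadd45a was 3.01-fold and Gadd45b 3.27-fold higher in FOXOA3 FSH, and 1.71-fold and 2.30-fold higher in FOXOA3-mDBD FSH. Active FOXO1 exceeded its mutant by 1.76-fold for Gadd45a and by 1.42-fold for Gadd45b. Gadd45b was 2.20-fold lower in FOXOA3 FSH than in GFP vehicle, while Gadd45a was 1.49-fold higher.

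**Figure D2:**
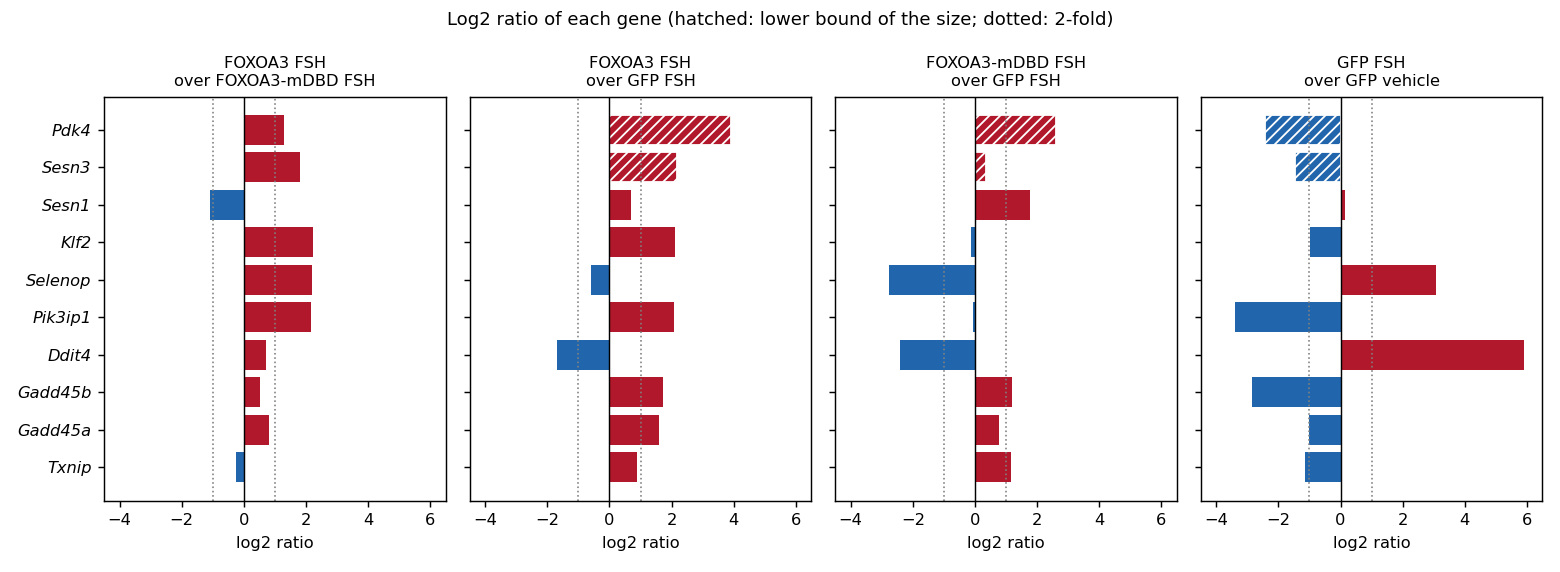
Log2 ratio (horizontal axis) of each gene in 4 comparisons, with red bars for higher and blue for lower in the group named first. Hatched bars are lower bounds of the size, and dotted lines mark 2-fold. Klf2 and Pik3ip1 are long in the panels of FOXOA3 FSH and near 0 in the panel of FOXOA3-mDBD FSH over GFP FSH, whereas Pdk4 is long in both panels over GFP FSH.

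Set side by side, the ratios to the shared GFP FSH array differed among the genes in the size seen with the mutant. Klf2 and Pik3ip1 were over 4-fold higher in FOXOA3 FSH and within 1.09-fold in FOXOA3-mDBD FSH, and Sesn3 was high in FOXOA3 FSH and 1.30-fold or more higher in FOXOA3-mDBD FSH. Pdk4 and Gadd45b were at least 2-fold higher with either vector. Gadd45a was 3.01-fold higher with active FOXO1 and 1.71-fold higher with the mutant. Sesn1 and Txnip passed 2-fold with the mutant and were at 1.60-fold and 1.86-fold with active FOXO1. Ddit4 was at least 2-fold lower with either vector, and Selenop was so with the mutant, against a log2 ratio of -0.58 with active FOXO1. In counts, 6 of the 10 genes were at least 2-fold higher in FOXOA3 FSH than in GFP FSH and 1 was lower, where 11.1% of 9941 measured genes were higher and 6.99% lower. In FOXOA3-mDBD FSH against GFP FSH, 4 were higher and 2 lower, where 12.5% of 9748 genes were higher and 19.1% lower. The medians of the 10 genes were 1.65 and 0.57 on the log2 scale, beside 0.04 and -0.16 over all measured genes. These comparisons use the same GFP FSH array, and any error in its signals enters both. FOXOA3-mDBD FSH against GFP FSH compares arrays of the same control-transcript state and FOXOA3 FSH against GFP FSH does not.

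The last comparison, of GFP FSH with GFP vehicle, concerns the hormone alone in cultures carrying the control vector. In GFP FSH against GFP vehicle 6 of the 10 genes were at least 2-fold lower, where 11.1% of 9578 measured genes were, and 2 were higher, where 6.84% were. Pik3ip1 was 10.6-fold lower, Gadd45b 7.21-fold, Pdk4 at least 5.43-fold, Sesn3 at least 2.75-fold, Txnip 2.22-fold and Gadd45a 2.02-fold. The log2 ratio of Gadd45a, -1.01, was between -0.99 and -0.94 under the 3 other scalings, short of the threshold. Klf2, at 1.97-fold lower, fell just short of the 2-fold threshold, and Sesn1 had a log2 ratio of 0.13. Ddit4 and Selenop ran the other way, with log2 ratios of 5.91 and 3.07. Only 3 measured genes, Ddit4 included, had a ratio as high as that of Ddit4. The comparison crosses the control-transcript states and the gap in the beta-actin 3' to 5' ratio, and the part of either in these ratios was not tested.

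FOXOA3 FSH against GFP vehicle compares arrays of the same state, and here 4 of the 10 genes were at least 2-fold higher and 2 lower, where 5.32% of 9904 measured genes were higher and 4.01% lower. Besides Ddit4 and Klf2, Selenop was 5.62-fold and Pdk4 2.77-fold higher, and the lower genes were Pik3ip1 and Gadd45b. Sesn1 and Sesn3 were 1.76-fold and 1.66-fold higher. In FOXOA3-mDBD FSH against GFP vehicle, 2 genes were higher, where 13.0% of 9861 were, and 4 lower, where 22.5% were. Ddit4 and Sesn1 were the higher genes, Sesn1 at 3.72-fold, and the lower ones were Pik3ip1 at 11.1-fold, Gadd45b at 3.13-fold, Klf2 at 2.14-fold and Sesn3 at 2.12-fold.

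FOXOA3 FSH over FOXOA3-mDBD FSH and GFP FSH over GFP vehicle have no array in common. The signs of the 10 genes were opposite in these comparisons for 7 genes and the same for 3, Ddit4, Selenop and Txnip. Over the 9261 genes measured in both, 60.0% had opposite signs, so that the share among the 10 genes was near that of all genes. The highest pair of arrays was FOXOA3 FSH and GFP vehicle for 5 of the 10 genes, Sesn3, Klf2, Pik3ip1, Gadd45a and Gadd45b, and for 25.8% of the 10407 genes above the floor on any array. These arrays share the control-transcript state and had the higher sums of theca, stroma and smooth muscle markers, and the part of either in the signals of these 5 genes was not tested. The sums came from different markers, mostly Dcn (12504.1) and Col3a1 (7556.3) on FOXOA3 FSH and Tagln (9167.1) and Acta2 (3710.6) on GFP vehicle. In FOXOA3 FSH over GFP vehicle, 2 of the 7 measured markers of this list were at least 2-fold higher and 3 lower. Of all measured genes, 5.32% were higher and 4.01% lower there.

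**Figure D3:**
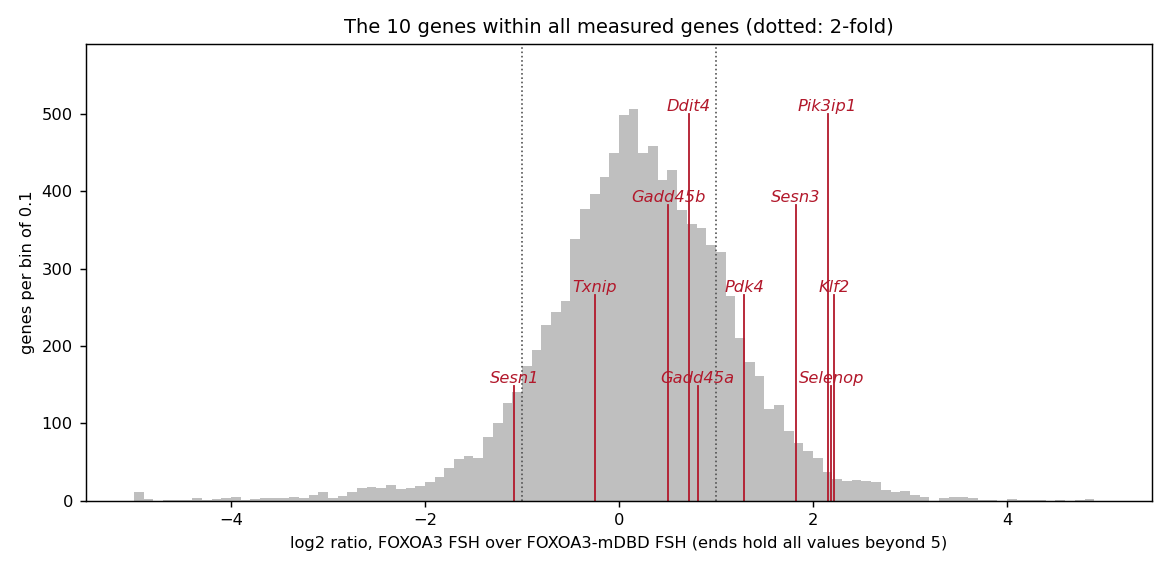
Number of genes (vertical axis) by log2 ratio of FOXOA3 FSH over FOXOA3-mDBD FSH (horizontal axis, bins of 0.1) for the 10092 measured genes, with the 10 genes as labelled red lines and 2-fold as dotted lines. Klf2, Selenop and Pik3ip1 lie between 2.15 and 2.22, in the upper tail, while Txnip, Gadd45b, Ddit4 and Gadd45a lie within the bulk.

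Within the distribution of all genes, 2.02% of measured genes had a ratio of active FOXO1 over its mutant as high as that of Klf2, 2.12% as high as Selenop and 2.28% as high as Pik3ip1. The shares were 4.29% for Sesn3 and 11.2% for Pdk4, and 8.12% of genes were as low as Sesn1. The median absolute log2 ratio over all measured genes was 0.61 here, 0.66 in FOXOA3-mDBD FSH over GFP FSH and 0.71 in FOXOA3-mDBD FSH over GFP vehicle, the 3 comparisons that use the array of the mutant. It was 0.47 in FOXOA3 FSH over GFP FSH, 0.45 in GFP FSH over GFP vehicle and 0.30 in FOXOA3 FSH over GFP vehicle. Of all genes at least 2-fold apart, 67.2% were higher in FOXOA3 FSH, and 48.3% once each array was centred on its median. With that centring, with quantile normalization and with loess, 5 of the 10 genes were still at least 2-fold higher and 1 lower. Of all measured genes, 12.8% were higher and 13.7% lower with centring, 15.2% and 10.5% with quantile normalization, and 14.6% and 11.1% with loess. The 1 lower gene of 10 was thus near the share of all genes. Where 2 probe sets of a gene were above the floor on both arrays, their log2 ratios differed by a median of 0.44 over 1949 genes, and by 1.16 at the 90th percentile. This scatter lies between probe sets of one array pair and is no measure of the spread between cultures.

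The probe sets of single genes did not all tell the same. Of the 19 probe sets, 9 were above the floor on all arrays and 7 on none, and 6 of the 10 genes had more than 1. Klf2 had 5, and its probe set of second rank had a flat signal of 185.2 on FOXOA3 FSH, 148.8 on FOXOA3-mDBD FSH, 185.8 on GFP FSH and 182.8 on GFP vehicle. The ratio of active FOXO1 to its mutant was 1.24-fold by that probe set, against 4.65-fold by the brightest, so that the size of the Klf2 difference depends on the probe set. A further probe set of Klf2 was above the floor only on FOXOA3 FSH, at 101.9, with 4.3 on FOXOA3-mDBD FSH, 4.9 on GFP FSH and 37.7 on GFP vehicle. The second probe set of Pdk4 was under the floor on all arrays, at 84.4 on FOXOA3 FSH, 10.3 on FOXOA3-mDBD FSH, 36.5 on GFP FSH and 69.5 on GFP vehicle. The second probe sets of Sesn1, Sesn3 and Pik3ip1 were also under it throughout, and Sesn1 thus rests on 1 informative probe set, as do Sesn3, Pik3ip1 and the 4 genes with a single one. If the log2 signals of all probe sets were averaged, which brings in those at the floor, 2 of the 10 genes, Selenop and Pik3ip1, stayed at least 2-fold higher with active FOXO1 than with its mutant. Under that averaging 14.9% of 10098 measured genes were as much higher, so that 2 of 10 is near the share of all genes.

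**Figure D4:**
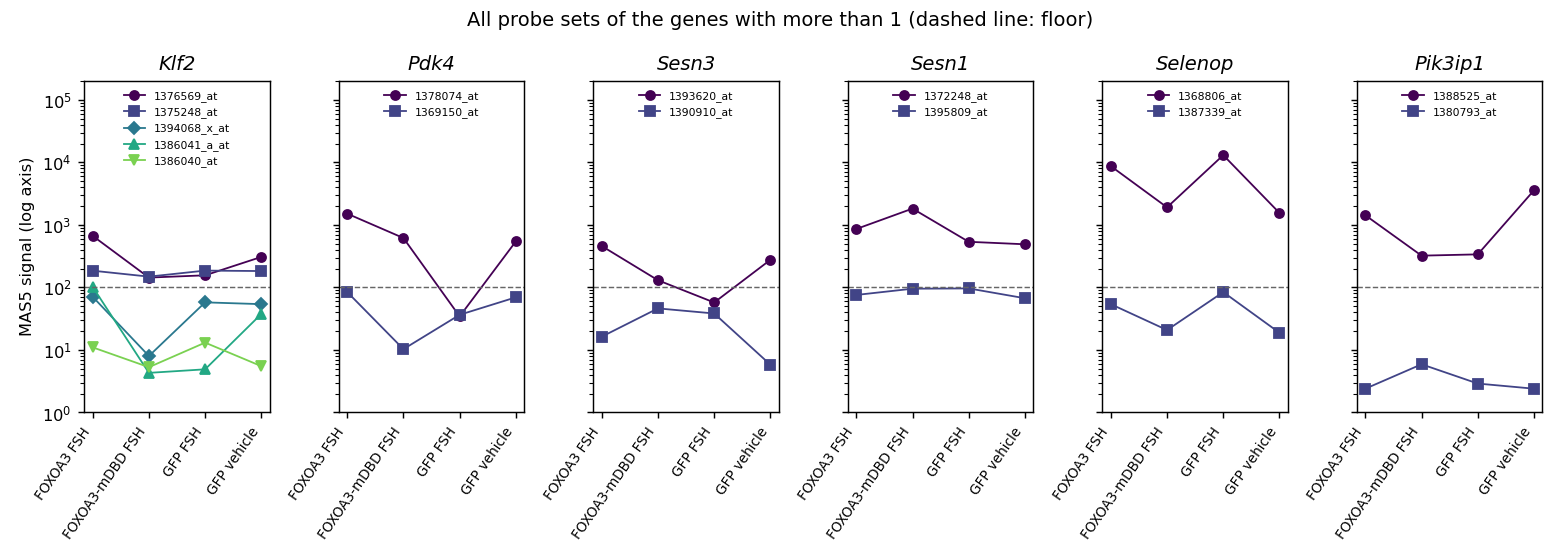
MAS5 signal (vertical log axis) on the 4 arrays of every probe set of the 6 genes with more than 1, each marker and line 1 probe set, with the floor of 100.5 dashed. In Klf2 the brightest probe set is high on FOXOA3 FSH, and the square markers of the second are flat, between 148.8 and 185.8.

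Related genes, the paralogs of the 10 and the thioredoxins that Txnip binds, were compared in the same way, and 4 of the 13 measured were at least 2-fold higher in FOXOA3 FSH than in FOXOA3-mDBD FSH and 0 lower, with a median log2 ratio of 0.60. For this list and those that follow, 19.0% of all measured genes were higher in that comparison and 9.24% lower, with a median of 0.21. The other pyruvate dehydrogenase kinases had smaller log2 ratios than Pdk4, at 0.98 for Pdk1, 0.42 or more for Pdk2, which was under the floor with the mutant, and 0.60 for Pdk3. Sesn2, the third sestrin, was at 0.84, and Gadd45g at 0.58. Of the Krüppel-like factors Klf4 was at 1.96, Klf6 at 1.06 and Klf9 at 1.11. The arrestins related to Txnip were at 0.27 for Arrdc3 and 0.00 for Arrdc4, and Ddit4l, the paralog of Ddit4, was at 0.39. The thioredoxins were at -0.13 for Txn1 and 1.36 for Txn2.

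Of 20 measured genes on a list of other FOXO targets, 7 were at least 2-fold higher with active FOXO1 than with its mutant and 1 was lower, with a median of 0.55. The largest log2 ratios were those of the cell cycle inhibitor Cdkn1a (1.72), the mitochondrial superoxide dismutase Sod2 (1.35), the cyclin Ccnd2 (1.32) and, among lower genes, the insulin receptor adaptor Irs2 (-1.26). The list was not split by the direction in which FOXO factors act on each gene. Against GFP FSH, Sod2 was at -0.79 and Ccnd2 at -1.17 in FOXOA3 FSH, and at -2.15 and -2.49 in FOXOA3-mDBD FSH. Relative to GFP FSH both genes were thus lower with either vector, and more so with the mutant. Against GFP vehicle, Sod2 was at 1.16 in FOXOA3 FSH and -0.19 in FOXOA3-mDBD FSH, and Ccnd2 at -0.02 and -1.35. Cdkn1a was at 1.98 in FOXOA3 FSH and 0.26 in FOXOA3-mDBD FSH against GFP FSH. Irs2 had a signal of 1599.3 on FOXOA3 FSH, 3838.0 on FOXOA3-mDBD FSH, 286.8 on GFP FSH and 1896.0 on GFP vehicle, the same order of the FSH-treated arrays as Sesn1. Fbxo32, Pck1, Igfbp1 and Trim63, targets known from muscle and liver, were under the floor on all arrays.

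The pathways in which the 10 genes act were read from further lists, beside 19.0% of all measured genes higher, 9.24% lower and a median of 0.21. Among 8 measured genes of pyruvate oxidation, which Pdk4 restrains, 0 were higher in FOXOA3 FSH than in FOXOA3-mDBD FSH and 1 was lower, the mitochondrial pyruvate carrier subunit Mpc2 at -2.27, and the median was -0.53. Of 12 genes of PPAR signalling and fatty acid oxidation, 3 were higher, Ucp2 (2.64), the lipase inhibitor Angptl4 (2.04) and the thiolase Acaa2 (1.10), and the acyl-CoA dehydrogenase Acadm was lower (-2.55), with a median of 0.21. Ppara was under the floor on all arrays. Of 16 regulators of PI3-kinase and mTORC1, on which Pik3ip1, Ddit4 and the sestrins act, 3 were higher, Akt1 (1.67), Akt2 (1.27) and the translation repressor Eif4ebp1 (1.21), 0 were lower and the median was -0.01. The 3 of 16 were near the share of all measured genes, and the median of the PPAR list was that of all measured genes.

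Selenop belongs to the selenoproteins, and 3 of 11 other genes of selenoproteins and selenium use were higher with active FOXO1 than with its mutant, the thioredoxin reductase Txnrd2 (1.46), Selenow (1.28) and Msrb1 (1.24), with 0 lower and a median of 0.63. In FOXOA3-mDBD FSH against GFP FSH 5 of these 11 were at least 2-fold lower and 0 higher, and in FOXOA3 FSH against GFP FSH 0 were either. Of all measured genes, 19.1% were lower and 12.5% higher in FOXOA3-mDBD FSH against GFP FSH. In FOXOA3 FSH against GFP FSH, 6.99% were lower and 11.1% higher. Of 9 p53 targets, a group that includes known regulation of Gadd45a and Sesn1, 2 were higher with active FOXO1, Cdkn1a and the apoptosis activator Bbc3 (1.32), and Perp was lower (-4.61), with a median of -0.10. Perp had a signal of 131.4 on FOXOA3 FSH, 3206.2 on FOXOA3-mDBD FSH, 53.1 on GFP FSH and 91.2 on GFP vehicle. Of 12 genes of the ATF4 stress response, which also raises Ddit4 and Sesn2, only Nupr1 was at least 2-fold apart between active FOXO1 and its mutant (1.11), and the median was -0.06. Against GFP FSH, 6 of 12 were at least 2-fold higher and 1 lower in FOXOA3 FSH, and 4 of 11 higher and 0 lower in FOXOA3-mDBD FSH.

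Interferon response genes, which cells raise on sensing viral nucleic acid, differed between the vectors. Of 11 measured, 5 were lower in FOXOA3 FSH than in FOXOA3-mDBD FSH and 0 higher, with Ifit3 at -1.87, Cxcl10 at -1.76, Irf7 at -1.69 and Mx1 at -1.61. Against GFP FSH, 7 of 11 were higher in FOXOA3 FSH (median 2.80) and 9 of 11 in FOXOA3-mDBD FSH (median 3.69). Of all measured genes, 11.1% and 12.5% were higher in these comparisons. Their part in the signals of the 10 genes was not tested.

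**Figure D5:**
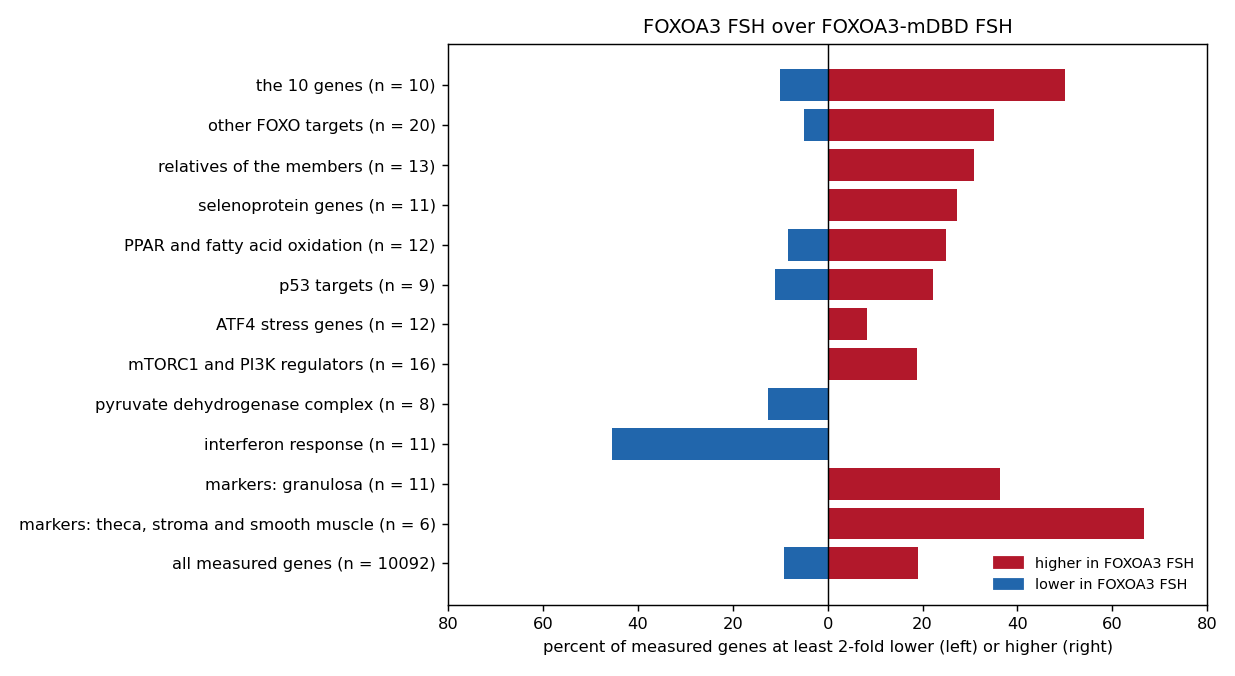
Percent of measured genes (horizontal axis) at least 2-fold higher (red, right) or lower (blue, left) in FOXOA3 FSH than in FOXOA3-mDBD FSH, for the 10 genes, 9 further lists, 2 marker lists and all measured genes, with the number measured in brackets. The red bar stands for 5 of 10 in the 10 genes, for 4 of 6 in the theca, stroma and smooth muscle markers, where it is longer, and for 19.0% of all measured genes, and the blue bar of the interferon response for 5 of 11.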

How the data were processed

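The intensity values deposited by the authors are linear and come from MAS5, according to the submitters' processing notes, which name no version or settings here. That method subtracts mismatch signal and scales each array, so that ratios of dim probe sets are noisy and differences in total RNA per cell are hidden. The 2% trimmed means were 500.1 to 500.2, and no scaling was added. Of 31042 rat probe sets, 20826 had 1 gene symbol in the platform annotation, 436 had several and 9780 had none. Each gene was represented by its brightest probe set on average. Signals under the floor (the median, 100.5) were raised to it before taking log2. Measured genes were those where the higher of the 2 signals passed the floor, and a fold against a floored signal is a lower bound, written "at least". The threshold was 2-fold, and the number of arrays limits the precision. The members and the lists were chosen with earlier results of these data known. The text names all 10 members, all their listed relatives, Foxo1, and up to 4 genes per list with the largest ratio of FOXOA3 FSH over FOXOA3-mDBD FSH among those past 2-fold. Genes under the floor and the signals of Irs2 and Perp were added after their values were seen. Alternatives changed the floor, normalization, probe sets, filter and fold. The ratio step was tested on simulated data. Python 3.11.15, pandas 2.3.3, R 4.3.3 and limma 3.58.1 were used.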

Additional observations from a re-analysis of the deposited data

How the results depend on the processing

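With 1 array per group, no array could be left out. Under 8 alternatives, 115 of 132 summary values (counts of the 10 genes past the threshold and their medians) moved by 1.5 times or less. Averaging all probe sets of a gene includes those at the floor. It gave 2 of the 10 genes higher and 0 lower in FOXOA3 FSH over FOXOA3-mDBD FSH, where 14.9% and 8.02% of all measured genes were. The median log2 ratio in FOXOA3 FSH over GFP FSH was 0.97, beside 0.05 over all measured genes. In FOXOA3 FSH over GFP vehicle 2 were higher (4.36% of all measured genes) and 1 lower (3.06%). In FOXOA3-mDBD FSH over GFP vehicle 1 was higher (11.1%) and 2 lower (18.0%), near the shares of all genes. A 3-fold threshold is stricter by construction, and the share of all measured genes that passed it is given in brackets. With that threshold 0 were lower in FOXOA3 FSH over FOXOA3-mDBD FSH (3.76%) and 2 higher in FOXOA3-mDBD FSH over GFP FSH (5.97%). In GFP FSH over GFP vehicle 3 were lower (4.31%). In FOXOA3 FSH over GFP vehicle 2 were higher (2.17%) and 0 lower (1.04%). In FOXOA3-mDBD FSH over GFP vehicle 2 were lower (10%). At 2-fold, that last count was also 2 under quantile normalization (19.6%), centring (16.2%), loess (18.4%) and the 75th percentile filter (23.9%). There Klf2 and Sesn3 fell short of 2-fold under the 3 scalings and of the filter's signal. Of 468 values of single genes, 422 stayed on their side of the threshold, 35 fell short of it, 11 passed it and 0 called values changed sign. Part of this was fixed in advance. The filter left the 48 values it kept unchanged, and averaging cannot alter genes with 1 probe set. The 1.5-fold and 3-fold settings moved only the threshold, and gave 8 of the 11 and 13 of the 35. Sesn3 in FOXOA3-mDBD FSH over GFP FSH was at 1.18 with the floor at the 25th percentile, and Txnip in FOXOA3 FSH over GFP FSH at 1.06 with quantile normalization and 1.12 with loess. Under centring, 52.1% in place of 39.6% of all calls were higher in FOXOA3-mDBD FSH over GFP FSH, and 53.4% in place of 36.6% in FOXOA3-mDBD FSH over GFP vehicle. With loess 56.7% in place of 67.2% of calls were higher in FOXOA3 FSH over FOXOA3-mDBD FSH.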
